A study of Mus musculus with 4 samples.

Results

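The circadian clock genes were taken as 10 genes fixed by symbol: Arntl, Clock, Per1, Per2, Per3, Cry1, Cry2, Nr1d1, Dbp and Bhlhe40. All 10 were on the array, with 15 probes between them, out of 15967 genes measured. Transcripts were measured on Illumina bead arrays in whole kidneys of 4 groups of mice, which were FVB/N diabetic, FVB/N control, C57BL/6 diabetic and C57BL/6 control. Diabetic mice had been diabetic for 21 days, control mice had received saline, all were 8 weeks old, and both sexes were mixed. The design text gives 6 kidneys per group, and the deposited table holds 1 column, called a library here, for each group. The sources used here say neither whether a library is a pool or a single kidney, nor how diabetes was induced. The design text gives a shared collection time for the samples, but neither the hour nor the lighting schedule, and a difference in hour between the groups cannot be told apart from one of strain or diabetes. With 1 time point, a shift in the timing of the rhythm and a change in its overall level cannot be told apart.

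The mammalian clock is a feedback loop of transcription that runs in nearly every cell, the kidney tubule included. ARNTL, also called BMAL1, and CLOCK form a heterodimer that binds E-box sequences and turns on the Per and Cry genes, whose proteins return to the nucleus and repress it. The same heterodimer turns on Nr1d1, which encodes the repressor REV-ERB alpha, and Dbp, which encodes an activator that binds D-box sequences. REV-ERB alpha represses Arntl through ROR elements, so in rodent tissues Arntl peaks at the opposite time of day to Dbp and Nr1d1. BHLHE40, also called DEC1, is a further E-box repressor. In the kidney the clock is known for its rhythm of sodium and water transport.

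Values are log2 intensities as deposited, running from 4.45 to 15.84, with library medians of 5.48 to 5.49. A gene with several probes was represented by its brightest, and it counted as expressed when its mean over the 4 libraries reached 5.49, the median of all probes. By this minimum 9201 genes were expressed, among them 8 of the 10 clock genes. Per3 and Cry1 were not: Per3 lay between 4.66 and 5.09 and Cry1 between 4.74 and 5.12 in the 4 libraries, near the bottom of the scale. Because each group has a single library, no replicate spread exists and no test could be run. A gene counted as higher or lower when its values in a pair of libraries were 1.5-fold or more apart, which is 0.58 in log2 units. As a yardstick for measurement error, the disagreement of paired probes was used: over 1159 genes with exactly 2 expressed probes it gave the SD of a difference measured by 1 probe, called the probe SD here. It was 0.47 log2 for diabetic minus control in FVB/N and 0.33 in C57BL/6, and for FVB/N minus C57BL/6 it was 0.56 in diabetics and 0.41 in controls. It holds probe disagreement only and not the variation between mice.

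Among kidney markers, the proximal tubule phosphate transporter Slc34a1 was between 14.52 and 14.97 and the thick ascending limb protein Umod between 12.04 and 12.64. Others were dim or differed: the podocyte marker Nphs1 read 5.40 in FVB/N control, the endothelial marker Kdr was not expressed, and the proximal tubule glucose transporter Slc5a2 had FVB/N minus C57BL/6 differences of -3.24 log2 in diabetics and -3.71 in controls. Markers of other tissue differed between the libraries. Of 6 fat markers on the array 5 were expressed, and their list summed on the linear scale to 1020 in FVB/N diabetic against 6040 in FVB/N control, and to 2210 in C57BL/6 diabetic against 5180 in C57BL/6 control. With diabetes the 5 expressed ones were each at least 1.5-fold lower in both strains, where 13.9% of expressed genes were in FVB/N and 6.35% in C57BL/6. They ranged from -1.45 for Cidea to -5.27 for Ucp1 in FVB/N. In C57BL/6 they ranged from -0.99 for Adipoq to -1.81 for Cidea. Plin1, a defining marker of fat cells and the listed one not expressed, was near background throughout, at 4.85 to 5.03. Erythroid markers, 4 of 4 on the array expressed, summed to 10700 in FVB/N diabetic and 17900 in FVB/N control. In C57BL/6 they summed to 9120 in diabetic and 7220 in control. The globin Hbb-b2 was higher in FVB/N by 1.55 log2 in diabetics and 4.13 in controls. For Hba-a1, Slc4a1 and Alas2 this difference was 0.03, -0.24 and -0.17 in diabetics, and 0.76, 0.31 and 1.04 in controls. Pancreas markers, 3 of 3 expressed, summed to 5430 in FVB/N diabetic and 3470 in FVB/N control. In C57BL/6 they summed to 4080 in diabetic and 3580 in control. Most of each sum came from Cela1, the brightest of these markers. With diabetes in FVB/N Cela1 was at 0.72 log2, but Amy2a5 was at -1.34 and Reg1 at -1.02, so the markers disagreed. Distal convoluted tubule markers summed to 6020 in FVB/N diabetic and 8870 in FVB/N control, against 4100 in C57BL/6 diabetic and 3930 in C57BL/6 control. These markers disagreed. FVB/N minus C57BL/6 was 0.81 in diabetics and 1.83 in controls for Pvalb, but -0.19 and -0.85 for Slc12a3. With diabetes in FVB/N Pvalb was at -0.71 and Slc12a3 at 0.32. Collecting duct markers summed to 2890 in FVB/N diabetic and to 1020 in FVB/N control, against 1190 in C57BL/6 diabetic and 1250 in C57BL/6 control. In whole tissue, fewer cells of a type and less RNA per cell cannot be told apart, and the part of these shifts in the clock gene values was not tested.

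Promoter windows of Arntl, Dbp, Nr1d1 and Per1 were taken from RefSeq on build GRCm38.p6. They run from 250 bases before to 50 after an annotated start and are written 5′ to 3′ on the gene's strand. They are shown because Arntl, Dbp and Nr1d1 carry the strain difference described next and Per1 was among the genes higher with diabetes in FVB/N. Capitals mark the motifs found, which are the ROR element in the Arntl window and, in the Per1 window, an E-box followed by a D-box.
Arntl, chr7:113207261-113207560, plus strand: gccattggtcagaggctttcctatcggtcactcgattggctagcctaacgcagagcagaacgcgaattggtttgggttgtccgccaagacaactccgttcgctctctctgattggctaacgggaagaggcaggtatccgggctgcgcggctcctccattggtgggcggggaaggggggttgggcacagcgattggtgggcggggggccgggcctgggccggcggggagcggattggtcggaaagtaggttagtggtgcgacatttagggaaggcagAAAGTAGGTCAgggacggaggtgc
Dbp, chr7:45704997-45705296, plus strand: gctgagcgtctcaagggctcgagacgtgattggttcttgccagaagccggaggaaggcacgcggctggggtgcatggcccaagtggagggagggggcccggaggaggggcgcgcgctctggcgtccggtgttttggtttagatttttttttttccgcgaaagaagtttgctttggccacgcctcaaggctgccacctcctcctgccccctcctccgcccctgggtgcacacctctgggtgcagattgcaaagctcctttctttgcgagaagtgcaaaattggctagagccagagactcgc
Nr1d1, chr11:98775328-98775627, minus strand: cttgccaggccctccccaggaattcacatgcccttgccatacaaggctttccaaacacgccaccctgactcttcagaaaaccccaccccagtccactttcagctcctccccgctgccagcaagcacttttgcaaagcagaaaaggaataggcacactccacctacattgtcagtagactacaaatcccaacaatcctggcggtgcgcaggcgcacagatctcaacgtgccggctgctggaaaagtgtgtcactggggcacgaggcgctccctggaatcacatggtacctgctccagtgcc
Per1, chr11:69098699-69098998, plus strand: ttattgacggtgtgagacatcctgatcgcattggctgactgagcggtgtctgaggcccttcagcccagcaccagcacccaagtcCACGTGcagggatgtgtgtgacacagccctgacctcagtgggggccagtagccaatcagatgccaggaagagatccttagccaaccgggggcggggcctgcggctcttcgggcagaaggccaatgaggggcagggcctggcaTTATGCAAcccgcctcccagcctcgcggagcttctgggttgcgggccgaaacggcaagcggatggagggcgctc

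The windows were searched on both strands for the E-box CACGTG, the D-box TTATGTAA, TTATGCAA or TTACGTAA, the ROR element, the cyclic AMP element TGACGTCA, and the glucocorticoid element AGAACA and TGTTCT spaced by 3 bases. Of the 10 genes 8 had a window in the table, 12 windows in all. The ROR element lay at bases 27 to 37 of the Arntl transcript, counting the annotated start of the window shown as base 1, where it reads AAAGTAGGTCA, and 0.384% of all 32851 windows held one. The Per1 E-box began 166 bases before its start and the D-box 24 bases before it. An E-box also lay 60 to 55 bases before the Cry1 start, and 2 copies of the D-box began 205 and 158 bases before the Per3 start. E-boxes were in 7.15% and D-boxes in 1.78% of all windows. The Dbp, Nr1d1, Clock and Cry2 windows held none of the motifs. Nor did the further windows of Arntl and Per1, with annotated starts at 113207465 and 69100152, which are not shown. This says only that these letters are not in these windows. No member window held the cyclic AMP or the glucocorticoid element, which were in 1.79% and 0.00913% of all windows.

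**Figure D1:**
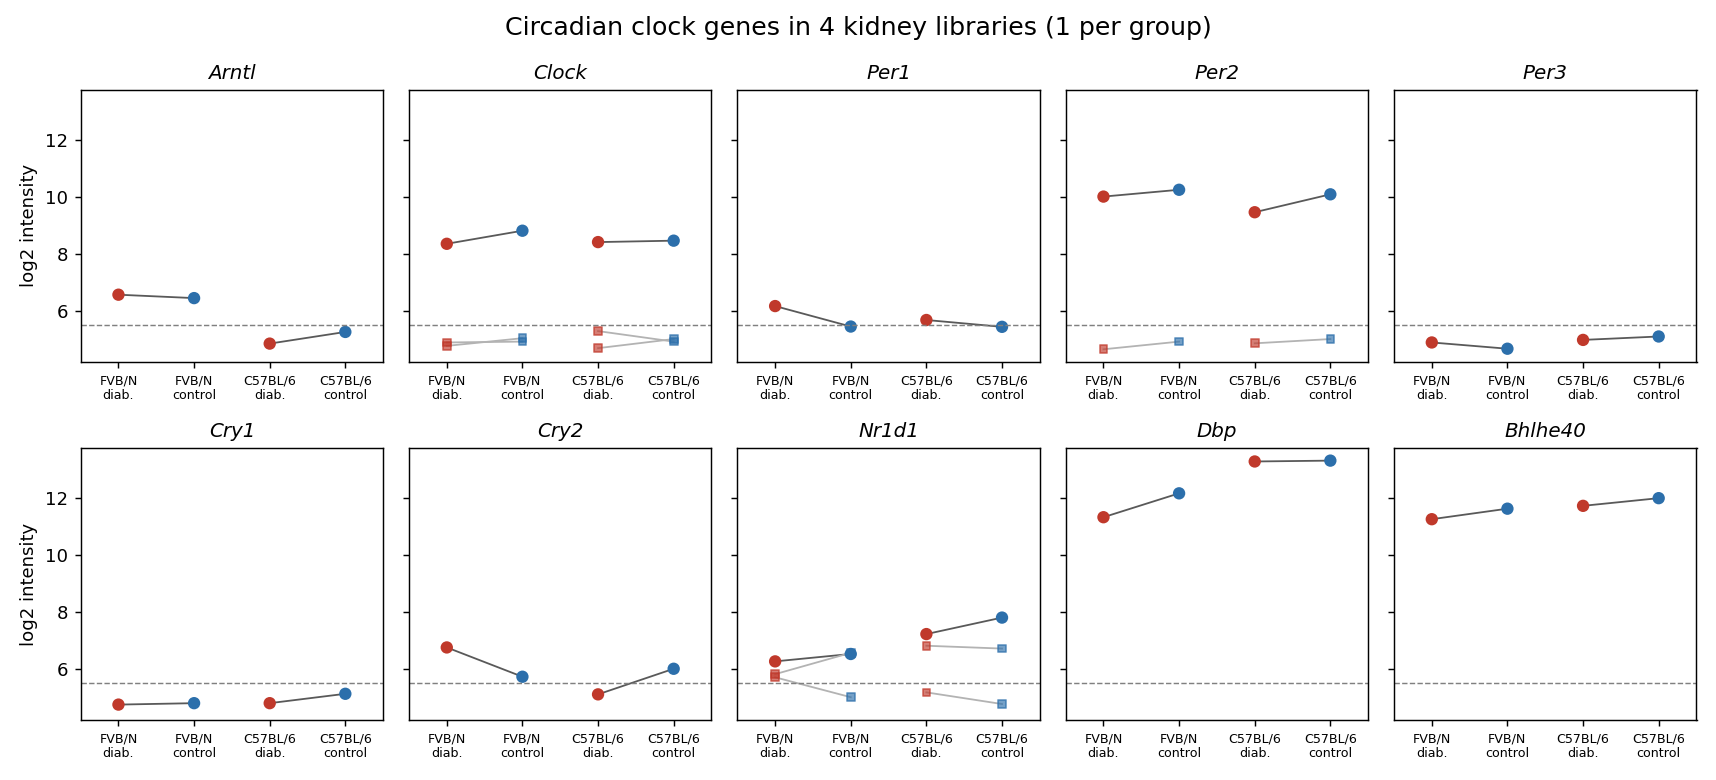
Log2 intensity of the 10 clock genes (vertical axis) in the 4 libraries, FVB/N and C57BL/6, each with diabetic (red) left of control (blue). Circles are the brightest probe of a gene and squares its other probes, lines join the libraries of a strain, the dashed line is the expression minimum of 5.49, and no error bars are drawn since each group has 1 library. Arntl stood above the minimum in both FVB/N libraries and below it in both C57BL/6 libraries, while Dbp was lower in FVB/N.

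The strain comparison asks how the genetic background bears on kidney gene expression, and it can be made once in diabetic and once in control kidneys with no library in common. Arntl was higher in FVB/N than in C57BL/6 in both, and Dbp and Nr1d1 were lower in both. These were 3 of 8 expressed clock genes at least 1.5-fold apart the same way in both conditions, and 5.14% of all expressed genes were. Arntl passed the expression minimum only through the FVB/N libraries, where it was high, so the counts and medians that include it are descriptions and nothing is read from them against the shares. Dbp and Nr1d1 were above the minimum in all 4 libraries. In diabetics alone 2 of 8 were higher, Arntl and Cry2, and 2 lower, where 14.7% of expressed genes were higher in FVB/N, 16.9% lower and 31.6% either. In controls alone 1 was higher and 2 lower, where 6.29% of expressed genes were higher, 6.75% lower and 13.0% either. The median over the 8 was 0.21 log2 in diabetics and -0.13 in controls, where all expressed genes had medians of -0.08 and 0.01.

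Arntl, the activating partner of CLOCK, read 6.56 in FVB/N diabetic and 6.44 in FVB/N control, against 4.84 in C57BL/6 diabetic and 5.25 in C57BL/6 control. Both FVB/N libraries were above the expression minimum and both C57BL/6 libraries below it, so Arntl passed the minimum through FVB/N and its fold is uncertain on the low side. FVB/N exceeded C57BL/6 by 1.72 log2 in diabetics, 3.08 times the probe SD, and by 1.19 in controls, 2.89 times the probe SD. Of all expressed genes, 1.91% were at least as far apart in diabetics and 2.47% in controls. The gene has 1 probe.

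Dbp, the D-box activator and a direct output of the loop, was bright in every library, at percentiles 96.0 to 99.1 of all probes. It read 11.33 in FVB/N diabetic and 12.17 in FVB/N control, against 13.29 in C57BL/6 diabetic and 13.32 in C57BL/6 control. The C57BL/6 libraries were level with each other and above both FVB/N libraries, of which the diabetic one was the lowest. The FVB/N minus C57BL/6 difference was -1.96 log2, or 3.88-fold lower, in diabetics and -1.15, or 2.22-fold lower, in controls. These sizes were 3.5 and 2.8 times the probe SD, and 1.25% and 2.8% of expressed genes were at least as far apart. Dbp also had the widest range of the 10 genes, 1.99 log2, and it too rests on 1 probe.

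Nr1d1, the repressor of Arntl, read 6.26 in FVB/N diabetic and 6.52 in FVB/N control on its brightest probe, against 7.22 in C57BL/6 diabetic and 7.80 in C57BL/6 control. Both FVB/N libraries were the lower, with differences of -0.95 log2 in diabetics and -1.28 in controls, 1.7 and 3.11 times the probe SD. Its probes disagreed on the size. The second probe read 5.81 in FVB/N diabetic and 6.56 in FVB/N control, against 6.81 in C57BL/6 diabetic and 6.71 in C57BL/6 control. Its FVB/N minus C57BL/6 difference was -1.0 in diabetics and -0.16 in controls. The dimmest probe, near background with values of 4.76 to 5.70, gave 0.54 and 0.24. With all probes averaged the difference came to -0.47 in diabetics and -0.40 in controls, both short of 1.5-fold, so the strain calls of Nr1d1 depend on the choice of probe.

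Bhlhe40, the E-box repressor also induced by many outside signals, was bright and varied little. It read 11.26 in FVB/N diabetic and 11.63 in FVB/N control, against 11.73 in C57BL/6 diabetic and 12.00 in C57BL/6 control. Neither strain difference, -0.47 in diabetics and -0.37 in controls, reached 1.5-fold or the probe SD. Its libraries were highest in C57BL/6 control, then C57BL/6 diabetic, FVB/N control and FVB/N diabetic. On their brightest probes Dbp and Nr1d1 had the same order, as did 5.89% of all expressed genes. For Dbp, diabetic minus control in C57BL/6 was only -0.03. The second Nr1d1 probe had C57BL/6 diabetic above C57BL/6 control, at 6.81 against 6.71. The order was taken from these values, so nothing is read from it against the share. Read by strain, 3 of 8 clock genes had both FVB/N libraries below both C57BL/6 libraries, as did 20.2% of expressed genes, and 1, Arntl, had both above, as did 16.7%.

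Clock, the partner of ARNTL, differed little between strains on its brightest probe. It read 8.35 in FVB/N diabetic and 8.81 in FVB/N control, against 8.41 in C57BL/6 diabetic and 8.46 in C57BL/6 control, so the strains were -0.06 apart in diabetics and 0.35 in controls. Its other 2 probes lay near background in every library, at 4.68 to 5.28. The repressor Per2 was bright on 1 of its probes, at 10.01 in FVB/N diabetic and 10.25 in FVB/N control, against 9.46 in C57BL/6 diabetic and 10.09 in C57BL/6 control. Its strain difference was 0.55 in diabetics and 0.16 in controls, both under 1.5-fold. The low library for Per2 was C57BL/6 diabetic, and its second probe stayed near background, at 4.64 to 5.0.

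**Figure D2:**
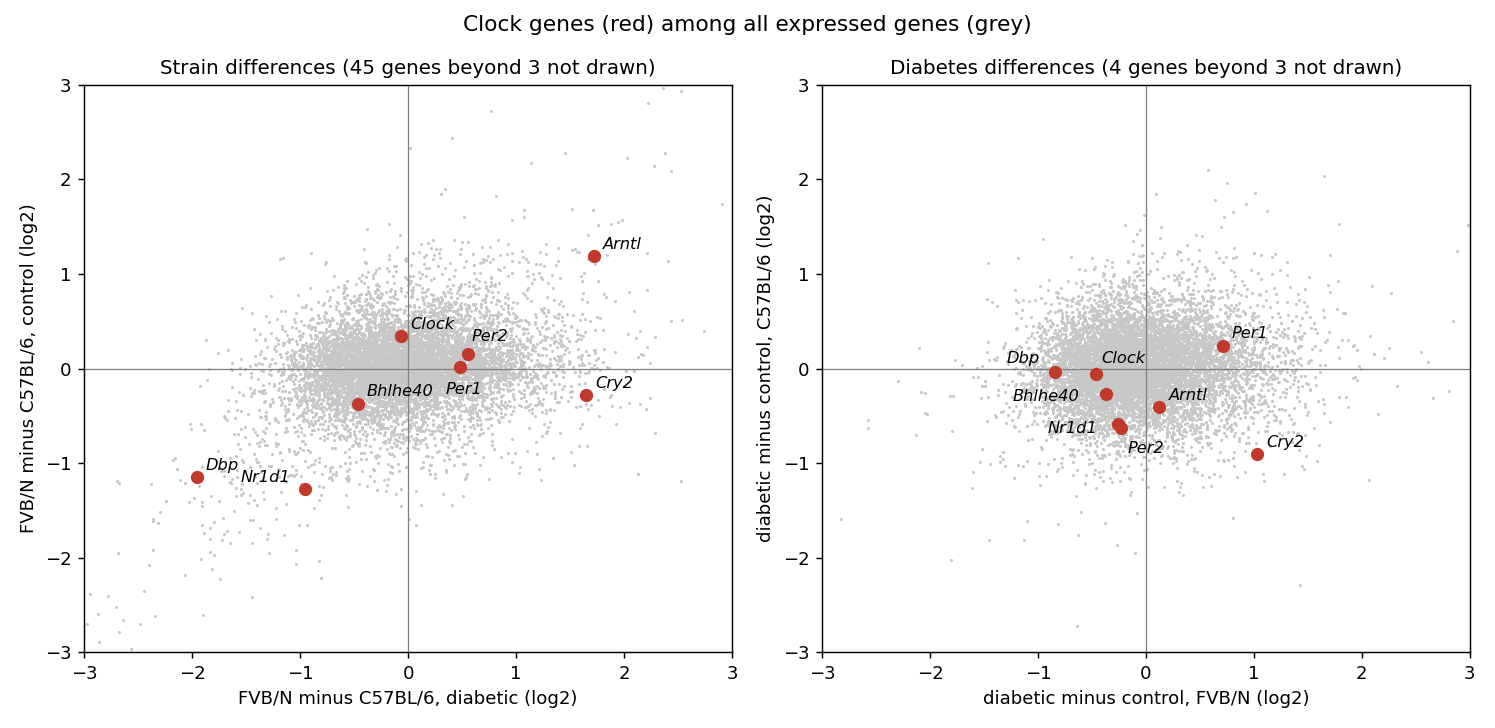
Each grey point is 1 of the 9201 expressed genes and each red point 1 of the 8 expressed clock genes, on log2 difference axes cut at 3. Left, FVB/N minus C57BL/6 in diabetic (horizontal) and in control libraries (vertical), where Arntl lies at the upper right (1.72, 1.19) and Dbp at the lower left (-1.96, -1.15); right, diabetic minus control in FVB/N (horizontal) and in C57BL/6 (vertical), where Cry2 lies at the lower right (1.03, -0.90). The axis limit leaves out 45 genes on the left and 4 on the right.

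In FVB/N kidneys, the comparison of diabetic with control asks which clock genes differed with early diabetes. Cry2 and Per1, both repressors of the loop, were higher in the diabetic library and Dbp was lower. That made 2 of 8 expressed members higher by 1.5-fold and 1 lower, where 12.4% of the expressed genes as a whole were higher and 13.9% lower (14.8% and 10.4% after loess centring on intensity). The median over the 8 was -0.25 log2, against -0.10 over all expressed genes. Together 3 of 8 were past 1.5-fold, where 26.3% of expressed genes were. Per1 was above the minimum only in the diabetic libraries of both strains, where it was high. The diabetes counts and medians that include it, here and in C57BL/6 below, are descriptions, and nothing is read from them against the shares.

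Cry2 read 6.75 in FVB/N diabetic against 5.72 in FVB/N control, a difference of 1.03 log2 or 2.04-fold, which was 2.17 times the probe SD. Of all expressed genes 5.79% were at least as far apart. Per1, which is induced within the hour by glucocorticoids and cyclic AMP, read 6.16 in FVB/N diabetic against 5.44 in FVB/N control, a difference of 0.71 from just below the expression minimum and 1.51 times the probe SD. Glucocorticoid targets were measured beside it. Of 9 expressed targets 5 were past 1.5-fold upward in FVB/N and 0 downward, where 12.4% and 13.9% of expressed genes were. These 5 were Cdkn1a at 2.99, the kinase Pdk4 at 1.29, the receptor cochaperone Fkbp5 at 0.80, Ddit4 at 0.79 and Zbtb16 at 0.70. Of the rest, Mt1 was at 0.35, Mt2 at -0.02, the salt-retaining kinase Sgk1 at -0.03 and Klf9 at -0.41. In C57BL/6 3 of the 9 were higher and 1 lower, with a median of 0.25, where 6.14% and 6.35% of expressed genes were higher and lower. There the higher ones were Cdkn1a at 1.52, Mt2 at 0.79 and Ddit4 at 0.67, and the lower one was Fkbp5 at -0.64. The FVB/N median was 0.70, and the part of these targets in the Per1 value was not tested. Tsc22d3, a listed target below the minimum, was at 0.42 in FVB/N and 0.04 in C57BL/6. The list was written with earlier results of these data known, so nothing is read from its counts against the shares.

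Dbp was at -0.84 log2, 1.79-fold lower in the FVB/N diabetic library, which was 1.77 times the probe SD and a distance that 11.2% of expressed genes reached. The other members lay within 1.5-fold, with Clock at -0.46, Bhlhe40 at -0.37, Nr1d1 at -0.26, Per2 at -0.23 and Arntl at 0.13. On its second probe Nr1d1 was at -0.74 and on its dimmest probe at 0.71. Per3 and Cry1, below the minimum, were at 0.22 and -0.06.

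In C57BL/6 kidneys the diabetic library was lower for 7 of 8 expressed clock genes, where 48.7% of all expressed genes were lower by any amount. Most of these differences were small: 2 of 8 were at least 1.5-fold lower, Cry2 and Per2, and 0 higher, against 6.35% lower, 6.14% higher and 12.5% either of all expressed genes. The median over the 8 was -0.34, against 0.01 over all expressed genes.

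Cry2 read 5.10 in C57BL/6 diabetic against 6.00 in C57BL/6 control, -0.90 log2 or 1.87-fold, with the diabetic library below the expression minimum. This was 2.72 times the probe SD, and 3.06% of expressed genes were at least as far apart. Per2 was at -0.63, 1.55-fold lower and 1.89 times the probe SD. Nr1d1, at -0.58, lay just short of 1.5-fold on its brightest probe, but its other probes were at 0.10 and 0.41. Arntl was at -0.41 between values that were both below the minimum, Bhlhe40 at -0.27, Clock at -0.05 and Dbp at -0.03, and Per1 was the 1 member above control, at 0.24. Of the members below the minimum, Cry1 was at -0.34 and Per3 at -0.12.

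The comparisons of diabetic with control in the 2 strains share no library. In FVB/N 5 of 8 members were lower by any amount, where 57.6% of expressed genes were. The same 5, Clock, Per2, Nr1d1, Dbp and Bhlhe40, were lower in C57BL/6 as well, and 29.4% of expressed genes were lower in both strains, but in no case was the difference 1.5-fold in both. Cry2 was the 1 member at least 1.5-fold apart in opposite directions, which 1.51% of expressed genes were. In diabetic kidneys its strain difference was 1.65 log2, 2.95 times the probe SD, while in controls it was -0.28.

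**Figure D3:**
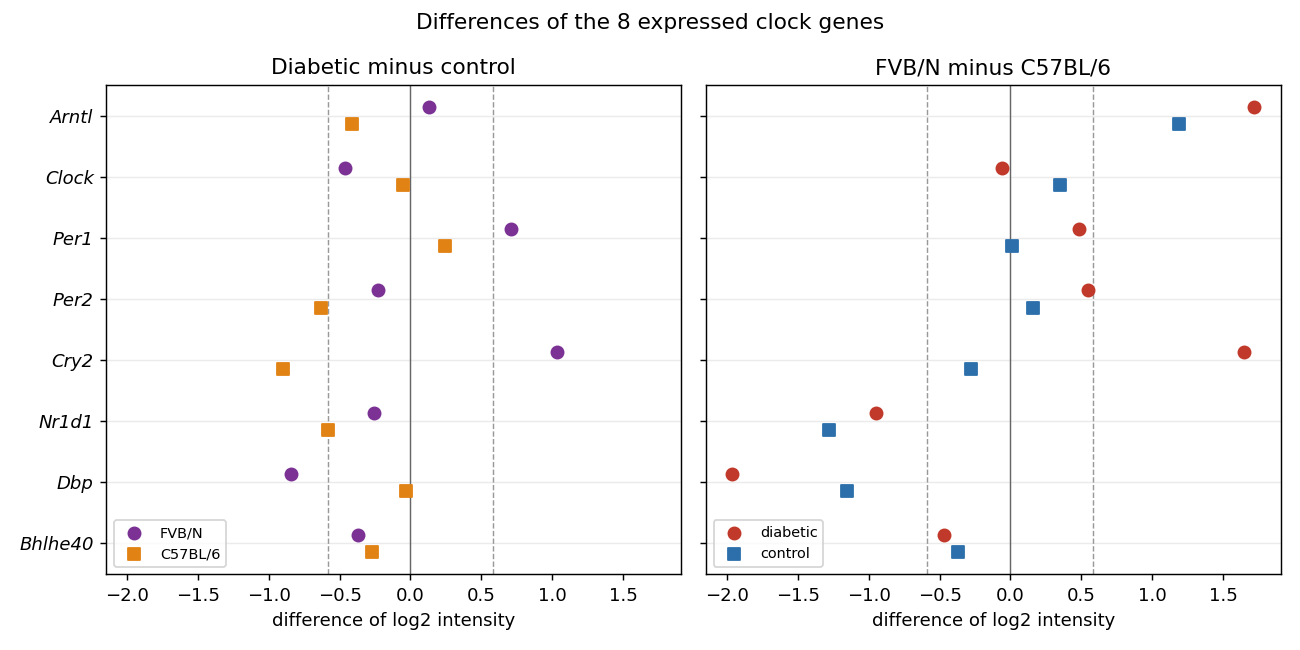
Differences of log2 intensity (horizontal axis) of the 8 expressed clock genes (rows), left as diabetic minus control in FVB/N (circles) and C57BL/6 (squares), right as FVB/N minus C57BL/6 in diabetic (circles) and control (squares) libraries. Dashed lines mark 1.5-fold (0.58), and each point compares 2 libraries with no error bar. On the right Arntl lies above 1.5-fold and Dbp and Nr1d1 below it in both conditions, and on the left no gene is past 1.5-fold the same way in both strains.

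Other regulators of the loop were taken from a list of 10, of which 8 were on the array and 5 expressed. Nr1d2, which encodes REV-ERB beta, read 6.71 in FVB/N diabetic and 7.91 in FVB/N control, against 7.94 in C57BL/6 diabetic and 7.73 in C57BL/6 control. The FVB/N diabetic library was thus the low one, at -1.2 log2 against its control. The second probe of Nr1d2, also above the minimum, gave -1.01 in FVB/N, but -1.59 in C57BL/6 where the first gave 0.21. So in FVB/N both probes were lower in the diabetic library, and in C57BL/6 they disagreed. They also disagreed on FVB/N minus C57BL/6 in diabetics, at -1.22 on the brightest probe and 0.85 on the second. Rora, an activator that competes with the REV-ERB proteins at ROR elements, was at -0.46 in FVB/N and -0.57 in C57BL/6, short of 1.5-fold. Tipin, a replication fork protein that binds TIMELESS, was lower in FVB/N than in C57BL/6 on its brightest probe, at -1.84 in diabetics and -1.8 in controls, with both FVB/N values below the minimum. Its second probe gave -0.08 in diabetics and 0.59 in controls, so the probes disagreed. Arntl2, a relative of Arntl, was at -0.61 in diabetics and -0.45 in controls. On the brightest probes, 1 of 5 was lower and 0 higher with diabetes in FVB/N, where 13.9% of expressed genes were lower and 12.4% higher, and 0 differed either way in C57BL/6, where 12.5% did. Between strains 3 of 5 were lower in diabetics, Nr1d2, Tipin and Arntl2, where 16.9% of expressed genes were, and 1 in controls, where 6.75% were. Tipin and Arntl2 passed the minimum only through the C57BL/6 libraries, where they were high. These strain counts are therefore descriptions, and nothing is read from them against the shares.

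**Figure D4:**
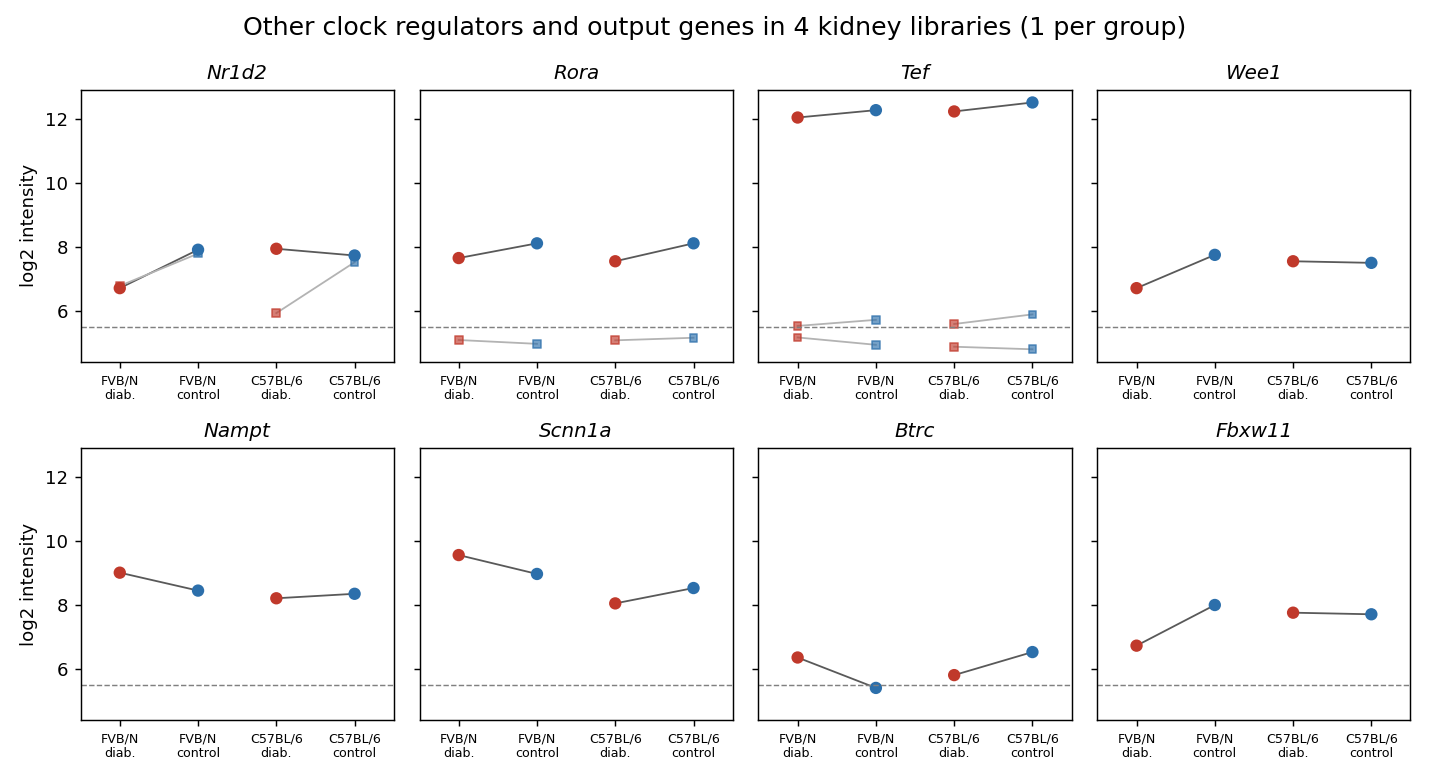
Log2 intensity (vertical axis) of 8 further genes of the clock system in the 4 libraries, FVB/N and C57BL/6, each with diabetic (red) left of control (blue). Circles are the brightest probe, squares other probes, lines join the libraries of a strain and the dashed line is the expression minimum of 5.49; each group has 1 library and no error bar. Nr1d2, Wee1 and Fbxw11 were lowest in the FVB/N diabetic library on their brightest probe, and Nampt and Scnn1a were highest there.

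The output genes gave 11 of 14 on the array and 6 expressed. Tef, a D-box activator related to Dbp, was bright and nearly level, at 12.04 in FVB/N diabetic and 12.27 in FVB/N control, against 12.23 in C57BL/6 diabetic and 12.51 in C57BL/6 control. The strain difference of Dbp had no counterpart of its size in Tef, where FVB/N minus C57BL/6 was -0.19 in diabetics and -0.24 in controls. Wee1, a kinase that holds back mitosis and is driven by E-boxes in rodent liver, was at -1.05 with diabetes in FVB/N and at 0.06 in C57BL/6. Scnn1a, the alpha subunit of the sodium channel ENaC and a Per1 target in mouse collecting duct cells, was at 0.59 in FVB/N and -0.48 in C57BL/6. Scnn1a is itself made in the collecting duct, of whose 4 markers Aqp2 was at 2.81, Aqp3 at 2.66, Scnn1b at 0.56 and Atp6v1b1 at -0.04 with diabetes in FVB/N. In C57BL/6 they were at -0.24, -0.31, 0.07 and -0.52 in the same order, and their part in the Scnn1a value was not tested. Between strains, FVB/N minus C57BL/6 in diabetic kidneys, Scnn1a was at 1.51, Nampt, the rate-limiting enzyme of NAD salvage, at 0.80 and Wee1 at -0.85. With diabetes 1 of 6 was higher and 1 lower in FVB/N, where 12.4% and 13.9% of expressed genes were, and 0 either way in C57BL/6, where 12.5% were. The 1 higher, Scnn1a, lay just past 1.5-fold, and the count came to 0 with median centring and 2 with loess. Between strains 2 were higher and 1 lower in diabetics, where 14.7% and 16.9% of expressed genes were, and 0 either way in controls, where 13.0% were.

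Kinases, ubiquitin ligase subunits and cofactors that modify clock proteins gave 13 of 18 on the array and 12 expressed. The casein kinases Csnk1d and Csnk1e, which phosphorylate PER proteins, lay within 1.5-fold in all comparisons, Csnk1d between -0.29 and 0.10 and Csnk1e between -0.34 and -0.16. Btrc and Fbxw11, the paired adaptors that send PER proteins for degradation, lay on opposite sides of control: in FVB/N Btrc was at 0.95 and Fbxw11 at -1.27 with diabetes, and in C57BL/6 they were at -0.72 and 0.05. With diabetes in FVB/N the kinase Gsk3b was at 0.61 and the deacetylase Sirt1 at 0.89, Sirt1 and Btrc from control values below the minimum, so that 3 of 12 were higher and 1 lower, against 12.4% and 13.9% of expressed genes. In C57BL/6 the coactivator Crebbp was at -1.09 and the AMP kinase subunit Prkaa1, which marks CRY1 for degradation, at -0.87, while Csnk1a1 was at 0.67, so that 1 was higher and 3 lower, against 6.14% and 6.35%. Csnk1a1 was above the minimum only in the C57BL/6 diabetic library, and Sirt1 only in the diabetic libraries of both strains. Both thus passed the minimum where they were high, and nothing is read from these diabetes counts against the shares. Between strains 0 were higher and 1 lower in diabetics, Fbxw11 at -1.04, against 14.7% and 16.9% of expressed genes, but loess centring gave 3 higher. In controls 0 were higher and 3 lower, against 6.29% and 6.75%, with Btrc at -1.12, Gsk3b at -0.69 and Crebbp at -0.59.

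The expressed genes most like Arntl over the 4 libraries, by the root mean square distance of values centred on each gene's mean, were Mttp at 0.042 log2, Hyal1 at 0.049 and Grpel2 at 0.058. For Dbp they were Atp6v1c2 at 0.088, Klhdc9 at 0.095 and Erlin1 at 0.099. With 4 libraries a likeness rests on 4 points, and 29 of the 9041 named expressed genes lay within 0.25 of Arntl and 45 within 0.25 of Dbp.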

How the data were processed

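Kidney RNA was measured on Illumina bead arrays with 1 library for each of 4 groups. Per the labels' protocols, RNA was extracted with Trizol, cleaned with DNase treatment and turned into biotinylated cRNA. The deposited values were read as log2 intensities from their range; their near-equal distributions resemble quantile normalization, but the sources used here do not state the authors' normalization, background correction or filters. Detection calls were not used.

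Of 24613 probes, 20984 had 1 gene symbol in the platform annotation, 1 had several and 3628 had none. Each of 15967 genes was represented by its brightest probe, and means at or above percentile 50 of all probes counted as expressed. Differences of log2 values were computed with Python 3.11.15, pandas 2.3.3 and numpy 2.4.6. No test was possible with 1 library per group. The number of arrays limits the precision.

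The text names all 10 clock genes with every probe, up to 4 expressed members per other list and comparison past 1.5-fold, and the 3 genes nearest to Arntl, to Dbp and to the widest member, which was Dbp. The glucocorticoid targets are an exception, as their strain differences are not given. Genes named beside these (Csnk1d, Csnk1e, Rora, Tef, Sgk1, the other glucocorticoid targets and markers) were chosen after their values were seen. The members and lists were chosen with earlier results of these data known, so nothing is read from their counts against the shares. The scripts were tested on simulated data with 200 changed genes. Alternatives were quantile normalization, median centring, loess centring with statsmodels 0.14.6 (span 0.3), no filter, percentile 75, averaged probes and a 2-fold threshold.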

Additional observations from a re-analysis of the deposited data

Results flagged for a closer look

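Cry2 was singled out because its diabetes differences ran in opposite directions past 1.5-fold in the strains. It was higher in FVB/N diabetic than in FVB/N control, 6.75 against 5.72, and lower in C57BL/6 diabetic than in C57BL/6 control, 5.10 against 6.00. The difference of these differences, FVB/N minus C57BL/6, was 1.93 log2, where the probe SD of such a value was 0.58 and 0.739% of expressed genes were at least as far from 0. The rule that singled out Cry2 makes this value large by itself, so nothing is read from it against the SD or the share. The difference was not tested, since each group has 1 library, and Cry2 has 1 probe with values near the expression minimum of 5.49.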

How the results depend on the processing

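No paired analysis was possible because each group has 1 library and the labels give no replicate numbers. Under quantile normalization, median centring and loess centring the member counts kept their values, except that 3 were lower with diabetes in C57BL/6 under quantile normalization and loess, where Nr1d1 passed 1.5-fold, and 3 higher between diabetic strains under loess, where Per2 did. Of the single clock genes, none past 1.5-fold changed sign under the alternatives that gave it a value; percentile 75 gave values for Clock, Per2, Dbp and Bhlhe40 only, the 2-fold threshold bears on counts alone, and single genes of other lists were not recomputed. With averaged probes, Nr1d1 was at -0.03 with diabetes in C57BL/6, -0.47 between diabetic strains and -0.40 between control strains. The median for diabetes in C57BL/6, -0.34, came to -0.15 with averaged probes and -0.16 with the filter at percentile 75, and the count lower, 2, came to 1 under both and to 0 at 2-fold. For diabetes in FVB/N, the filter at percentile 75 gave a median of -0.41 and 0 higher, and 2-fold gave 1 higher and 0 lower. Between diabetic strains the median of 0.21 turned to -0.06 with no filter and -0.26 at percentile 75 and came to 0.02 with averaged probes, so it depends on the filter and the probe rule. There, percentile 75 left 0 higher and 1 lower, and averaged probes and 2-fold each left 1 lower. Between control strains the median came to -0.31 with no filter, and percentile 75 left 0 higher and 1 lower, as averaged probes left 1 lower. Of the other list counts, 19 of 168 moved by more than 1.5 times or to or away from 0.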
